A study of Mus musculus with 10 samples.

Results

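Of the 114366 open chromatin regions of the series, 1836 (1.61%) carried an ATAC-seq peak in both wild-type (WT) libraries of the monocyte-dendritic cell progenitor (MDP) and in none of the 6 WT libraries of the other stages. ATAC-seq sequences the DNA into which a transposase inserts, so open chromatin appears as peaks. A region here is a stretch of chromosomes 1 to 19 or X in which peaks of the 10 libraries overlap by at least 1 bp. The 1836 regions, called MDP-only regions below, were 3.46% of the 53073 regions with a peak in both WT MDP libraries. Their presence in WT MDP and their absence from the other WT stages were the rule of choice, not results. The knockout libraries played no part in the choice and served as the readout. In a sorted population, a region open in fewer cells and one less open in each cell cannot be told apart.

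Bone marrow progenitors of C57BL/6 mice were sorted by magnetic selection and then flow cytometry, with 5000 to 7200 cells per library and 2 libraries per group. The groups were IRF8-deficient MDP (IRF8KO MDP; Lin-, Sca-1-, CD117+, IL-7R-, CD115+), WT long-term haematopoietic stem cells (LT-HSC; Lin-, CD117+, Sca-1+, CD135-, CD48-, CD150+), WT lymphoid-primed multipotent progenitors (LMPP; Lin-, CD117+, Sca-1+, CD135+), WT MDP with the same sorted markers as IRF8KO MDP, and WT common dendritic cell progenitors (CDP; Lin-, Sca-1-, CD117 intermediate, IL-7R-, CD115+, CD135+). The LMPP libraries carry a cell type field that reads short-term stem cells, and the groups here follow their titles. The design text calls the WT libraries biological duplicates and does not name the knockout libraries. The labels give neither the knockout allele, the age of the mice nor the animals behind a library.

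IRF8 is a DNA-binding member of the interferon regulatory factors that binds DNA largely together with partners such as the ETS factor PU.1 (Spi1). In mice, loss of IRF8 is known to reduce dendritic cells and monocytes and to increase neutrophils. The MDP is described as a progenitor of monocytes and dendritic cells that lies upstream of the CDP. Distal open regions of such progenitors are often enhancers bound by PU.1, C/EBP, RUNX and AP-1 factors.

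Libraries held 4790046 to 10166833 tags, per the file headers, and the shortest list was that of LT-HSC replicate 1, with 31325 peaks and 19.3% of its tags within peaks. The IRF8KO MDP lists held 50728 and 54277 peaks with 43.7% and 43.9% of tags within them, against 62130 and 64515 peaks with 51.3% and 53.7% in WT MDP. The part of this difference in the results below was not tested. The MDP markers Csf1r, Kit, Cx3cr1, Flt3 and Irf8 had peaks within 1 kb of the gene in all 4 MDP libraries. Summed over these 5 genes, 23 and 25 regions were found in IRF8KO MDP, against 31 and 28 in WT MDP and 37 and 34 in CDP. Kit had 2 and 2 in IRF8KO MDP against 6 and 7 in WT MDP. Csf1r and Cx3cr1 had 4 in each of the 4 MDP libraries, and the values of Flt3 and Irf8 overlapped between the groups. The 4 stem cell markers Slamf1, Mecom, Procr and Ly6a had 7 and 6 regions in IRF8KO MDP, against 12 and 13 in WT MDP. Mecom alone gave 5 and 5 of these against 10 and 10. The values of Slamf1 and Procr overlapped between the groups, and Ly6a had 0 in all 4 MDP libraries. Of the markers of other lineages, Gata1 and Klf1 had 1 region and Elane 2 regions in each of the 4 MDP libraries, and Cd3e, Fcer1a and Epx had 0 in all 4. The 3 lymphoid markers had 5 and 6 regions in IRF8KO MDP against 7 and 7 in WT MDP, and the 2 dendritic markers had 8 and 11 against 12 and 13.

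Few MDP-only regions were promoters: 15 of 1836 (0.817%) lay over a RefSeq start site of a protein-coding gene. These 15 are the regions whose gene is known directly, so their upstream sequences are shown first. Of the 15, 10 (66.7%) had a peak in both IRF8KO MDP libraries, against 70.5% of all regions of both WT MDP libraries. One, at Olfr550, had a peak in a single IRF8KO library, and 4 (Adcy1, Epn2, Wnt9b and Scn8a) had none. The 10 belonged to Ms4a3, Lcn2, Mgst2, Vnn3, Gpld1, Angptl8, Adcy10, Rtn1, Kcnip3 and 4930415O20Rik. The windows below hold the 250 bases before the start site, 5′ to 3′ on the gene's strand, from RefSeq on GRCm38.p6, the assembly also called mm10. The first 5 are examples of promoters open in both knockout libraries and the last 2 of promoters open in neither. Capitals mark matches, on either strand, to letters typical of ETS, composite ETS-IRF, paired IRF, C/EBP, RUNX, AP-1 and GATA sites, which are spelled out with their counts below.
Ms4a3: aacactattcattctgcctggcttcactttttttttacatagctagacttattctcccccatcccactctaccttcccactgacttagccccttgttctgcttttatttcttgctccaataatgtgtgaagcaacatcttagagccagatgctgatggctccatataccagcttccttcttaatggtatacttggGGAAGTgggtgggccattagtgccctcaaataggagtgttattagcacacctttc
Lcn2: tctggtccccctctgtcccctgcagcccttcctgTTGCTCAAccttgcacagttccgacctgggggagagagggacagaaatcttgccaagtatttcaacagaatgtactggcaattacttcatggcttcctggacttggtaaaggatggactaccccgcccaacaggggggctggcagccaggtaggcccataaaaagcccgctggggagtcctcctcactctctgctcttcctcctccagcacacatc
Mgst2: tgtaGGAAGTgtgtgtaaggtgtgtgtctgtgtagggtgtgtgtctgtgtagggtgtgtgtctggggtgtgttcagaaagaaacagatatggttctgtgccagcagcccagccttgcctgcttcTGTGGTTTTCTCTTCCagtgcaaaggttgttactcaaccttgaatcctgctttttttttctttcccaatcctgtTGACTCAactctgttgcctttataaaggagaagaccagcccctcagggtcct
Vnn3: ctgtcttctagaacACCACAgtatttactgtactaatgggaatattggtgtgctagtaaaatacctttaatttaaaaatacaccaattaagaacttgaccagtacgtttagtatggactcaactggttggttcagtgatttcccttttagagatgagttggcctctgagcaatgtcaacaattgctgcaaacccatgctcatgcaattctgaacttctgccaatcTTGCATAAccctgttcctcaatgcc
Rtn1: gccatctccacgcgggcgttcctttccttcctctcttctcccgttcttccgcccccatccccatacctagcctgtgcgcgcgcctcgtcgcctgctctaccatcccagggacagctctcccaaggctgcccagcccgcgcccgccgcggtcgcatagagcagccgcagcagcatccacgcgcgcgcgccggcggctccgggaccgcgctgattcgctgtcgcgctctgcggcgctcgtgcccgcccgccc
Epn2: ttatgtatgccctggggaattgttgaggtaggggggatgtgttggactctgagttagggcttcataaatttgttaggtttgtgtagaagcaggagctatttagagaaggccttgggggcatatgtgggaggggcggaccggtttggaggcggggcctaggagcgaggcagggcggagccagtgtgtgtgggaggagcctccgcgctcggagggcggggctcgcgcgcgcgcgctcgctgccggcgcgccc
Scn8a: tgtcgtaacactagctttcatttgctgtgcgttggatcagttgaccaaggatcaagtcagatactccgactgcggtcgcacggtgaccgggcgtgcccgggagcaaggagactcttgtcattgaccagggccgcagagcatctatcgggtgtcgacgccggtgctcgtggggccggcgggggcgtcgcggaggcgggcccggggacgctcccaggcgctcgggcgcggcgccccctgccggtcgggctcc

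Ms4a3 (chr19:11640852-11641101, minus strand) encodes a membrane-spanning protein of granulocyte and monocyte progenitors, and its window held 1 ETS match 55 bases before the start. Lcn2 (chr2:32387740-32387989, minus strand) encodes lipocalin 2, an iron-chelate binding protein of neutrophil granules, and held 1 C/EBP match 216 bases before it. Mgst2 (chr3:51660929-51661178, plus strand) encodes a microsomal glutathione transferase. Its window held an ETS match at 246 bases, a RUNX match at 126 directly followed by a composite ETS-IRF match at 120, and an AP-1 match at 52. Vnn3 (chr10:23851212-23851461, plus strand), of the vanin family, held a RUNX match at 236 bases and a C/EBP match at 25. Rtn1 (chr12:72236728-72236977, minus strand) encodes a reticulon of the endoplasmic reticulum and held no match. Neither did the windows of Adcy10 and 4930415O20Rik, which were open in both too. Epn2 (chr11:61579688-61579937, minus strand), an endocytic adaptor, and Scn8a (chr15:100870395-100870644, plus strand), a sodium channel, held none of these letters. Of the coding promoters open in both knockout libraries, 7 of 10 held at least 1 match, and of the 4 open in neither, 0 did. Of the noncoding ones open in both, 9 of 16 held one, and so did both noncoding ones open in neither. The share of other windows with at least 1 match is not given, so these counts have no background. A link between matches and detection in the knockout was not tested. Counting noncoding genes too, 34 MDP-only regions lay over 35 start sites, and 26 of the 34 (76.5%) had peaks in both IRF8KO libraries, 2 in one and 6 in neither.

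Letter matches were counted in the 35 windows, in the 14335 windows whose start lay in any region of both WT MDP libraries and in all 32619 windows, as a description. The C/EBP letters TTGCNNAA, with N for any base, stood in 7 of the 35 windows (20%), against 7.60% of WT MDP windows and 9.62% of all. The RUNX letters TGTGGT stood in 8 (22.9%), against 10.8% and 13.9%, and the AP-1 letters TGANTCA in 5 (14.3%), against 4.12% and 6.78%. Composite ETS-IRF letters, GGAA followed after any 2 bases by GAAA, stood in 3 (8.57%), against 2.03% and 2.32%. Paired IRF letters, GAAA repeated after any 2 bases, stood in 2 (5.71%), against 2.71% and 2.99%. The ETS letters GGAAGT, which can overlap the composite ones, stood in 7 (20%), against 23.7% and 19.8%. Both windows of the noncoding gene Gm32914 count among these 7. They overlap and hold the same match, at 11 and 16 bases before their start sites. The GATA letters AGATAA stood in 2 (5.71%), against 5.31% and 10.02%. Each count rests on few windows, and a match is not a bound site.

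The first question was whether these regions stay open without IRF8. A peak was present at 1282 of the 1836 (69.8%) in IRF8KO MDP replicate 1 and at 1340 (73.0%) in replicate 2, a mean of 71.4% ± 2.23 (SD, n = 2 libraries). Both knockout libraries had a peak at 1199 regions (65.3%), exactly 1 of them at 224 (12.2%) and neither at 413 (22.5%, 95% Wilson interval 20.6% to 24.5%). Over all regions of both WT MDP libraries, the shares were 70.5% for both, 10.1% for exactly 1 and 19.4% for neither, so the MDP-only regions stood near this background. Intervals cover counting error over regions only. With 2 libraries per group the smallest exact permutation p is 0.333, and since the rule fixes WT MDP detection, no test between IRF8KO and WT MDP was made.

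Regions found in all 4 WT libraries of MDP and CDP, but in no LT-HSC or LMPP library, were detected less often. Of these 7853 MDP-and-CDP regions, 35.8% were detected in IRF8KO replicate 1 and 39.4% in replicate 2, and neither library detected 56.6%. MDP-only regions were thus detected more often by 34.0 and 33.6 percentage points, a difference of 33.8 ± 0.26 (SD, n = 2). The 517 regions shared by LMPP and MDP (both libraries of each, no LT-HSC or CDP library) were detected in 70.6% and 75.6%, close to the MDP-only values. The 779 regions of LT-HSC, LMPP and MDP without CDP gave 63.4% and 65.9%, and the 20770 regions of all 4 WT stages gave 95.2% and 96.0%. All classes were read in the same 2 knockout libraries, so their differences share those libraries.

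The MDP-only regions stood low in the WT MDP lists, where detection in the knockout was lower for all classes. The lists give no peak height, but their rows were taken to run in order of strength between blocks of ties, which the lists do not state. The place of a peak is given as its row position, in percent of its list from the head. Peaks in the first 10% of the 4 MDP lists had median widths of 1544.5 to 1752 bp, against 501 bp in the last 10%. The median row position of MDP-only regions was 77.5% in WT MDP replicate 1 and 74.1% in replicate 2, against 42.3% and 41.0% for the other regions of both WT MDP libraries. Their median merged width was 671 bp, against 1158 bp. By 25% bands of mean WT row position, 8, 161, 731 and 936 of the 1836 fell from head to tail.

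Within bands of equal WT row position, detection in IRF8KO MDP was higher for MDP-only regions than for all WT MDP regions in all 4 bands, with 8 regions in the first. In the second band, 96.3% and 94.4% of the 161 MDP-only regions were detected, against 81.7% and 83.6% of all regions. In the third, 82.4% and 85.0% of 731 were detected, against 62.3% and 66.2%. In the last, 55.2% and 59.7% of 936 were detected, against 41.2% and 46.6%. In the first band all 8 were found in both libraries, where 96.6% and 96.8% of all regions were. Classes that were absent from CDP but shared with earlier stages stood near the MDP-only values. LMPP-and-MDP regions were detected at 94.8% in both libraries in the second band (58 regions), 83.7% and 87.0% in the third (208) and 53.3% and 61.0% in the last (246). Regions of LT-HSC, LMPP and MDP gave 93.2% in both, 70.2% and 72.5%, and 46.3% and 49.7% in these bands. Regions of all 4 WT stages, CDP included, also reached 80.1% and 83.8% in the third band and 56.9% and 63.6% in the last. High detection at equal row position was therefore not particular to MDP-only regions. The MDP-and-CDP regions stood below all regions in each band, at 65.2% and 66.8%, 48.1% and 51.8%, 32.4% and 36.7%, and 23.3% and 25.8% from head to tail.

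**Figure D1:**
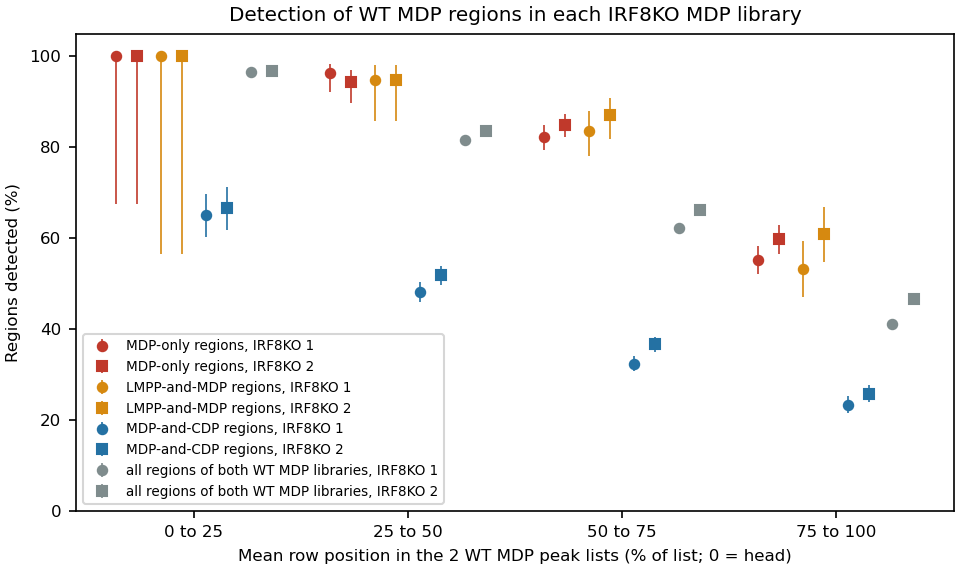
Percent of WT MDP regions with a peak in IRF8KO MDP replicate 1 (circles) and replicate 2 (squares), by 25% band of the mean row position in the 2 WT MDP lists (0 = head), for MDP-only, LMPP-and-MDP and MDP-and-CDP regions and all regions of both WT MDP libraries; lines are 95% Wilson intervals. In the last band the MDP-only regions stood at 55.2% and 59.7%, LMPP-and-MDP regions at 53.3% and 61.0%, all regions at 41.2% and 46.6%, and MDP-and-CDP regions at 23.3% and 25.8%.

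Requiring both WT libraries favours WT MDP, so the choice was repeated on the libraries of one replicate number and read in the others. The label of open only at the MDP stage held in part in these held-out libraries. Regions chosen on replicate 1 (WT MDP replicate 1 and no LT-HSC, LMPP or CDP replicate 1) numbered 4668. Of them, 47.9% had a peak in IRF8KO replicate 1 and 52.5% in IRF8KO replicate 2, against 56.1% in WT MDP replicate 2. The held-out LT-HSC, LMPP and CDP libraries had 7.65%, 10.2% and 16%. Regions chosen on replicate 2 numbered 5656, and 46.6% and 51.3% had a peak in the IRF8KO libraries, against 48.5% in WT MDP replicate 1. The held-out LT-HSC, LMPP and CDP libraries had 0.690%, 7.64% and 24.5% of these.

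Held-out WT MDP detection was thus 52.3% ± 5.41 (SD, n = 2 directions), and IRF8KO minus WT MDP detection averaged -2.75 ± 4.54 percentage points (SD, n = 2). For all regions of WT MDP replicate 1 the same libraries gave 68.5% and 71.3% in IRF8KO MDP, against 88.6% in WT MDP replicate 2. For all regions of WT MDP replicate 2 they gave 67.7% and 70.5% in IRF8KO MDP, against 85.6% in WT MDP replicate 1. Held-out MDP-and-CDP choices gave 37.5% and 41.7% in IRF8KO MDP against 83.4% in WT MDP, and 34.9% and 38.6% against 81.5%. For MDP-only choices on replicate 1 both IRF8KO values lay below WT MDP, with differences of -8.29 and -3.62 percentage points. For choices on replicate 2 they lay on either side of it, at -1.86 and 2.78 points. For the other 2 sets both IRF8KO values lay below the WT value in both directions, by 15.1 points or more. Leaving out CDP replicate 1 or replicate 2, which removes the CDP condition in one direction, the mean difference between IRF8KO and WT detection was -16.7 or -17.9 percentage points.

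**Figure D2:**
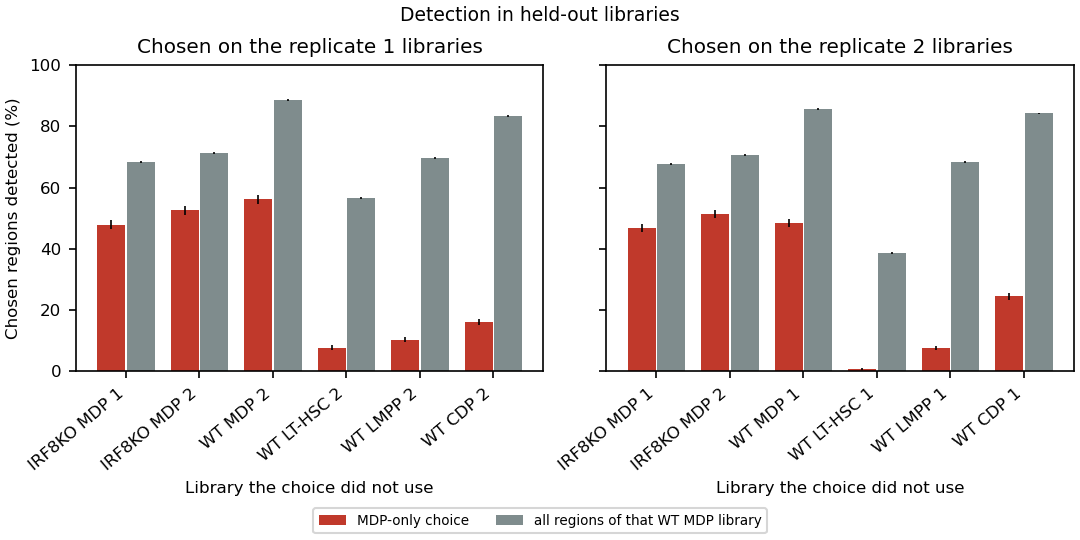
Percent of regions detected (y axis) in libraries that the choice did not use (x axis), for MDP-only choices (red) and all regions of the choosing WT MDP library (grey), with choices on replicate 1 libraries at left and replicate 2 at right; lines are 95% Wilson intervals. For MDP-only choices the 2 IRF8KO bars stand at 47.9% and 52.5% beside 56.1% for WT MDP at left, and at 46.6% and 51.3% beside 48.5% at right, while all-region bars reach 88.6% and 85.6% in WT MDP.

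Regions detected in all 4 MDP libraries were also compared by where they stood in each list. Over these 37408 regions each library's rows were ranked from 0 (head) to 100 (tail), a percentile that does not depend on list length. The 1199 MDP-only regions among them had median percentiles of 63.6 and 61.4 in IRF8KO MDP, against 88.0 and 88.3 in WT MDP. They stood nearer the head in IRF8KO MDP, with median differences (IRF8KO minus mean WT) of -21.8 percentile points in replicate 1 and -22.5 in replicate 2. Left out here were the 224 MDP-only regions in 1 IRF8KO library and the 413 in neither. Leaving them out favours places nearer the head in the knockout. WT percentiles near 88 also leave little room toward the tail. Both IRF8KO libraries stood nearer the head than both WT libraries at 898 of the 1199 (74.9%), where 29.9% of all 37408 regions did. Both stood nearer the tail at 38 (3.17%), where 26.1% of all regions did.

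The MDP-and-CDP regions had median differences of -2.08 and -3.27 percentile points over 2499 regions, pooled over WT positions. LMPP-and-MDP regions differed by -14.8 and -13.8 points over 341 regions, with both IRF8KO libraries nearer the head than both WT libraries at 63.3%. Regions of LT-HSC, LMPP and MDP differed by -10.1 and -8.61 points over 420 regions, with 49.3%. The direction was thus shared by these 3 classes without a CDP peak. Within 25-point bands of WT percentile, the MDP-only differences were -17.7 and -18.2 in the second (24 regions), -22.6 and -23.7 in the third (211 regions) and -21.6 and -22.3 in the last (964 regions). In the last band LMPP-and-MDP regions differed by -14.4 and -13.4 (262 regions), and all regions by -6.29 and -5.97. For MDP-and-CDP regions the differences ran from 6.05 and 5.50 in the first band (52 regions) to -5.36 and -5.83 in the last (1140 regions). With members chosen on one replicate number and WT read in the other, the medians were 65.6 and 64.8 in IRF8KO MDP, against 88.3 in held-out WT MDP replicate 2 (1604 regions). Chosen on replicate 2, they were 65.6 and 64.8 in IRF8KO MDP, against 88.0 in WT MDP replicate 1 (1625 of 5656 regions). The order of rows agreed between replicates over all regions (Spearman 0.91 in IRF8KO MDP and 0.92 in WT MDP). Over MDP-only regions it was 0.85 in IRF8KO MDP (1199 regions) and 0.57 in WT MDP (1836 regions), as a description across regions.

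**Figure D3:**
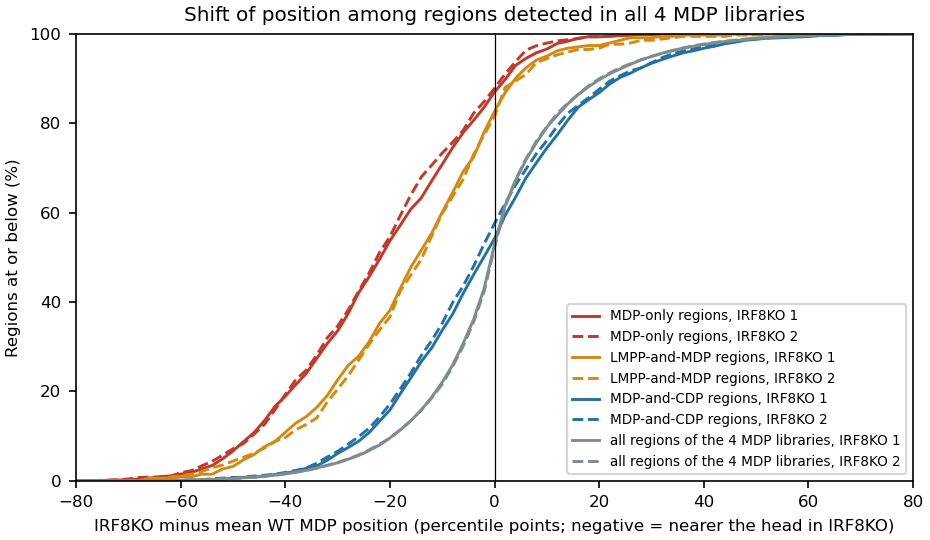
Cumulative percent of regions (y axis) by the difference IRF8KO minus mean WT MDP percentile position (x axis, negative values nearer the head of the knockout list), for each IRF8KO library (solid, replicate 1; dashed, replicate 2). The MDP-only curves lie to the left, with medians of -21.8 and -22.5, the LMPP-and-MDP curves have medians of -14.8 and -13.8, and the MDP-and-CDP curves have medians of -2.08 and -3.27.

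Several MDP-only regions lay at genes of transcription factors that act in these progenitors. Each region was assigned to the closest span of a protein-coding gene, up to 100 kb away, and 1663 of 1836 had one. Over the list of 36 such factors, 13 of 333 WT MDP regions were MDP-only (3.90%, against 3.46% over all WT MDP regions), with 10 found in both IRF8KO libraries and 3 in neither. Since the regions were chosen by WT detection, these shares are descriptions.

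Irf8, the gene of the missing factor, had 3 MDP-only regions among its 16 regions of both WT MDP libraries. The region within the gene (chr8:120740596-120741755) had a peak in both knockout libraries, at percentiles of 69.8 and 83.9 in IRF8KO MDP, against 79.6 and 82.3 in WT MDP. The groups overlapped there. A region 52.9 kb from the gene's lower-coordinate end (chr8:120788735-120789758) stood at 53.4 and 64.8 in IRF8KO MDP, against 81.6 and 80.3 in WT MDP, with no overlap. The third (chr8:120800376-120801004) had no peak in either IRF8KO library and row positions of 97.9% and 82.6% in the WT MDP lists. One Irf8 region that is not MDP-only (chr8:120739489-120740007) had a peak in both IRF8KO libraries and in no WT library. Of the 34 regions nearest to Irf8, IRF8KO MDP had peaks at 13 and 16, against 21 and 17 in WT MDP, and CDP at 26 and 23. Peak lists do not show the deleted part, so they are no check of the knockout.

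Spi1, which encodes PU.1, had 2 MDP-only regions among 7. The first (chr2:91088900-91089748, within the gene) stood at percentiles of 63.6 and 61.4 in IRF8KO MDP, against 96.4 and 95.9 in WT MDP. The second (chr2:91114852-91115400), near the other end of the gene, had no peak in either IRF8KO library. About 1 kb from it, chr2:91113133-91113806 had a peak in both IRF8KO libraries and in no WT library. Cebpa, Klf4, Gata2, Flt3 and Csf1r, fixed for naming, had none among 7, 6, 6, 9 and 3 regions.

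**Figure D4:**
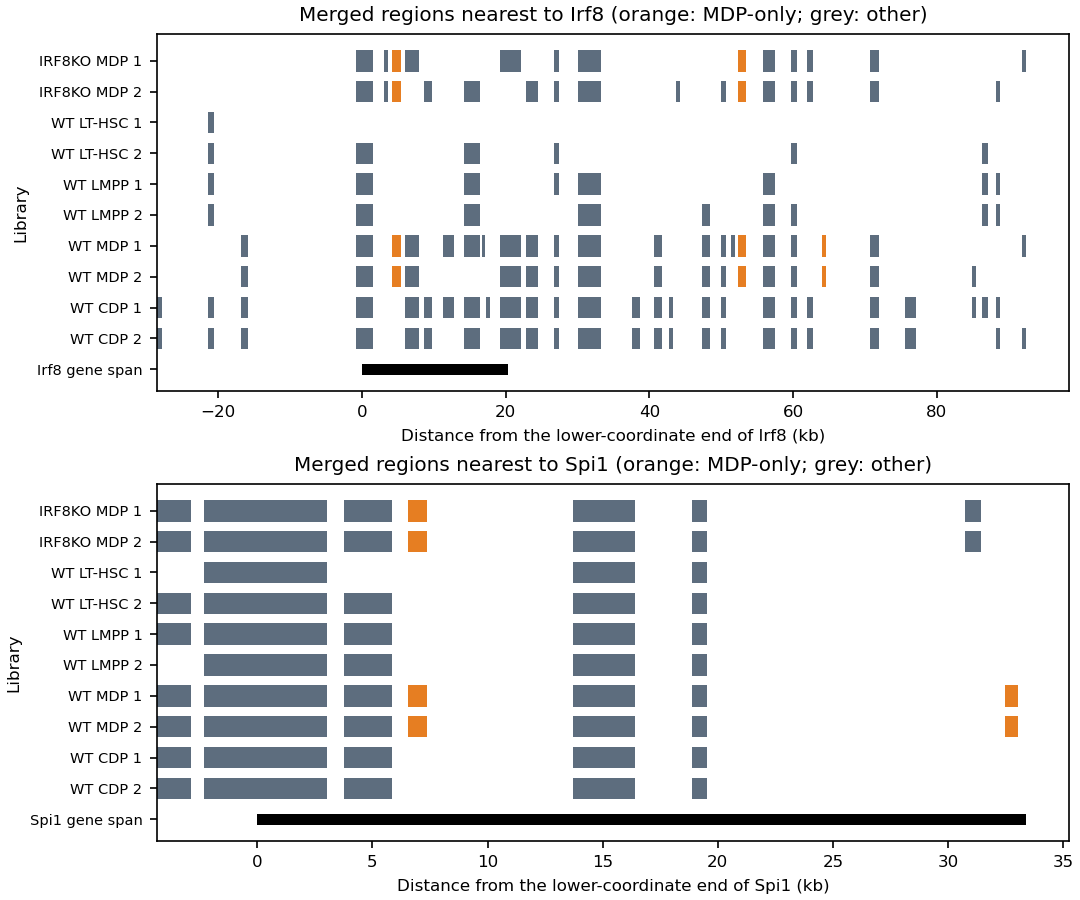
Merged regions nearest to Irf8 (top) and Spi1 (bottom) with a peak in each library (rows), drawn to scale by distance in kb from the gene's lower-coordinate end; orange regions are MDP-only, grey regions are not, and the black bar is the gene span. At each gene 1 orange region is missing from both IRF8KO rows, and the others are present in both.

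Runx1, a factor needed for blood stem cell formation, had 3 MDP-only regions, each within the gene and each nearer the head in both IRF8KO libraries. The first (chr16:92612426-92613117) stood at 35.1 and 40.04 in IRF8KO MDP, against 81.6 and 68.1 in WT MDP. The others stood at 41.4 and 66.5 against 96.4 and 88.3, and at 46.7 and 50.2 against 75.8 and 68.1. Erg, an ETS factor of stem cells, had 2, both within the gene and both nearer the head in the knockout. They stood at 24.3 and 18.9 in IRF8KO MDP against 70.5 and 65.1 in WT MDP, and at 16.6 and 24.2 against 51.2 and 34.5. The Bcl11a region (chr11:24120867-24122100), at a factor of lymphoid and plasmacytoid dendritic cells, moved furthest of the plotted regions, with 42.4 and 40.9 in IRF8KO MDP against 99.5 and 99.6 in WT MDP. Maf, a macrophage factor, had a region at 37.6 and 44.8 in IRF8KO MDP, against 96.4 and 82.3 in WT MDP. Jun, an AP-1 subunit, had 2, of which one over the noncoding gene Junos stood at 63.6 and 43.8 against 83.7 and 76.6, and the other had no IRF8KO peak.

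Genes of mature myeloid cells followed. The neutrophil and granule list had 3 MDP-only regions among 52 (5.77%). The Ms4a3 promoter shown above stood at percentiles of 32.9 and 38.4 in IRF8KO MDP, against 53.2 and 52.6 in WT MDP. The Lcn2 promoter stood at 67.7 and 64.8 in IRF8KO MDP, against 96.4 and 97.4 in WT MDP. At both promoters the 2 knockout libraries lay nearer the head than the 2 WT libraries. Mmp8, a neutrophil collagenase, had a region with no peak in either IRF8KO library. Chil3, which encodes the chitinase-like protein Ym1 of myeloid cells, was the one gene among the 10 with most MDP-only regions whose WT MDP regions were all MDP-only (3 of 3). The nearest other WT-stage region lay 45.8 kb or more away from them. They stood at 25.7 and 22.2, 59.8 and 42.7, and 94.5 and 79.0 in IRF8KO MDP, against 38.2 and 44.9, 55.4 and 57.2, and 94.4 and 95.9 in WT MDP, and the first alone showed no overlap.

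The monocyte and macrophage list had 3 of 122 (2.46%), at Ms4a3, Maf and Mertk, a receptor for apoptotic cells, with peaks in both IRF8KO libraries. The conventional dendritic cell list had 4 of 138 (2.90%), the 3 at Irf8 and 1 at Nfil3, also found in both. The eosinophil list had 2 of 21 (9.52%), both near the ribonuclease gene Ear1 and both in neither IRF8KO library. Ear1 belongs to a cluster of near-identical genes, where the placing of reads is uncertain. The mast cell and basophil list had 2 of 49 (4.08%), at Mitf and Cd200r3, and the lysosome list 1 of 55 (1.82%), at the protease gene Lgmn, with peaks in both libraries.

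In the earlier and other lineages, the stem cell list had 3 of 115 (2.61%), among them the 2 at Erg. The lymphoid priming list had 3 of 100 (3%), at Lax1, Foxo1 and Bcl11a, found in both libraries, and the plasmacytoid dendritic cell list had the same Bcl11a region among 92 (1.09%). The housekeeping list had 2 of 42 (4.76%), at Hprt and Ywhaz, each found in 1 IRF8KO library. The erythroid, megakaryocyte, T and NK cell, and interferon response lists had 0 of 31, 38, 25 and 24.

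Most genes had a single MDP-only region: 1420 genes had at least 1, 1222 of them exactly 1, 157 had 2 and 41 had 3 or more. To make up the 10 genes with the most, ties among the 38 genes with 3 went to the lower mean WT row position. Detection in the knockout was higher nearer the head, so this choice favours regions found in both IRF8KO libraries. These 10 genes held 34, of which 30 had peaks in both IRF8KO libraries, 1 in one and 3 in neither. Of all MDP-only regions 65.3% were in both, and of all WT MDP regions 70.5%. At 20 of those 30 both IRF8KO libraries stood nearer the head than both WT libraries, and at 0 nearer the tail. Among regions with peaks in all 4 MDP libraries, both stood nearer the head at 74.9% of MDP-only regions and 29.9% of all regions. Plcb4, a phospholipase C, had 5, with 2 in both libraries, 1 in one and 2 in neither. Wwox, an oxidoreductase, and Unc5c, a netrin receptor, had 4 each, all in both libraries. Dock5, a guanine nucleotide exchange factor, Antxr2, a receptor of extracellular matrix, Nedd9, a scaffold of integrin signalling, Bcl2, an inhibitor of cell death, and Runx1 had 3 each in both libraries. Rybp, a Polycomb subunit, had 3, of which 1 was in neither.

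**Figure D5:**
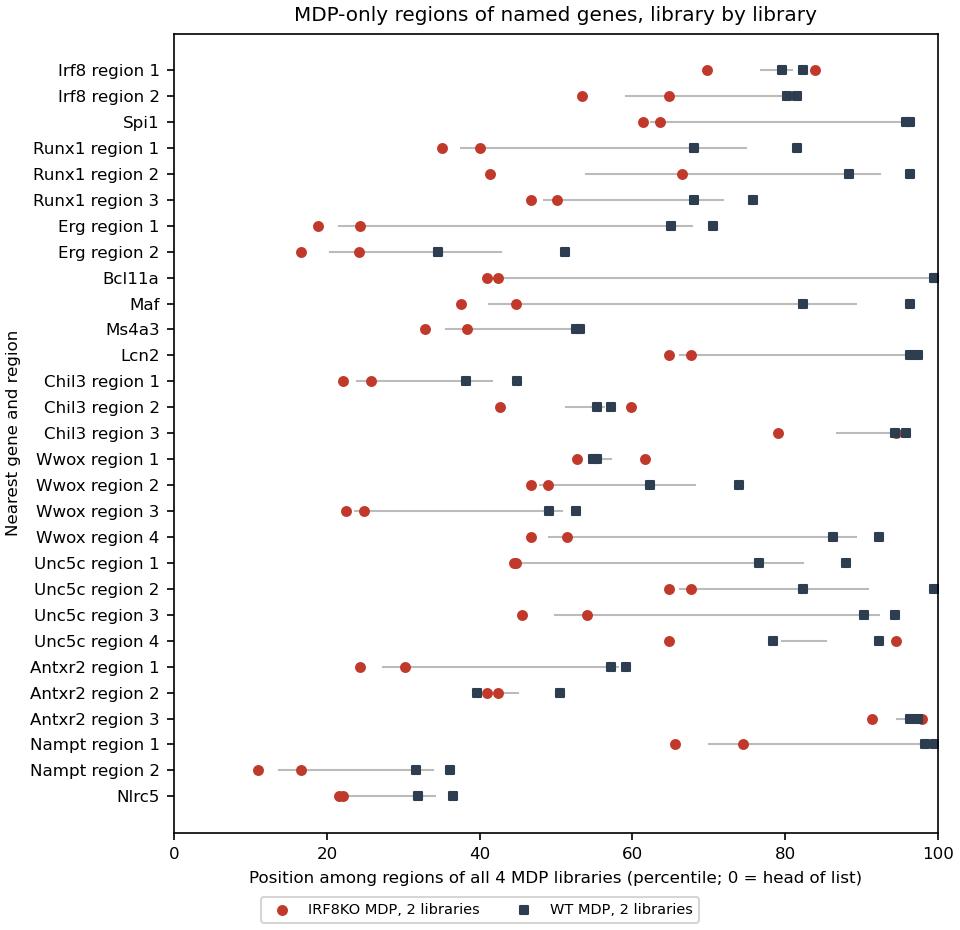
Percentile position (x axis, 0 = head of list) of 29 MDP-only regions of 14 named genes that had peaks in all 4 MDP libraries, with IRF8KO MDP libraries as circles, WT MDP libraries as squares and a line between the group means. At 22 of the 29 both circles lie left of both squares, and at 7 the groups overlap. Among regions with peaks in all 4 MDP libraries, both IRF8KO libraries stood nearer the head at 74.9% of MDP-only regions and 29.9% of all regions.

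The MDP-only regions nearest the head of the WT MDP lists that were also in both IRF8KO libraries included one at Nampt (chr12:32856572-32857735), the NAD salvage enzyme, at 16.6 and 10.9 in IRF8KO MDP against 36.1 and 31.6 in WT MDP. Nlrc5, an activator of MHC class I genes, had one at 21.5 and 22.2 in IRF8KO MDP against 31.9 and 36.5 in WT MDP. A region with no gene within 100 kb (chr1:80025686-80026922) stood at 7.73 and 9.99 in IRF8KO MDP against 35.4 and 37.8 in WT MDP. In all 3 the groups did not overlap. The rest of the first 8 lay near Adgrv1, Riok3, Mepe, Vgll3 and Trim52. The groups did not overlap at Riok3 (18.5 and 21.1 in IRF8KO MDP against 38.9 and 35.8 in WT MDP) or Mepe (13.2 and 21.5 against 37.5 and 38.5). They overlapped at Adgrv1 (32.9 and 32.1 against 32.5 and 41.6), Vgll3 (43.4 and 29.1 against 38.2 and 38.5) and Trim52 (33.6 and 37.6 against 47.2 and 29.5). The first 8 found in neither IRF8KO library included regions near Opcml, Msr1, Galntl6, Lrrtm4 and Astn2, and 2 had no gene within 100 kb. Of these genes Msr1 encodes a macrophage scavenger receptor, and Opcml, Lrrtm4 and Astn2 are known mainly from neural tissue. The first of them (chr2:159591340-159592260) had row positions of 36.1% and 38.9% in WT MDP and lay 234 kb from the nearest region of another WT stage.

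MDP-only regions lay away from gene ends. Of 1836, 96 (5.23%, interval 4.30% to 6.34%) lay within 1 kb of an end of a protein-coding gene, against 24.8% of the other WT MDP regions and 5.34% of MDP-and-CDP regions. Within a gene span lay 52.8%, against 57.8% of the other WT MDP regions, and 173 (9.42%) had no gene within 100 kb, against 6.19%. Start sites of coding genes lay within 0.817% of them, against 18.6% of the other WT MDP regions and 1.24% of MDP-and-CDP regions. By chromosome, 2.65% (chromosome 19) to 4.27% (chromosome 8) of WT MDP regions were MDP-only, and on X 3.95%.

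Many lay close to regions of other stages without overlapping them. The median distance to the nearest CDP peak region was 5836.5 bp, with 206 (11.2%) within 1 kb. It was 6294.5 bp to LMPP regions (10.1% within 1 kb) and 9357.5 bp to LT-HSC regions (7.24%). Another MDP-only region lay within 50 kb of 385 (21.0%), and the median distance to the nearest other one was 245 kb. No like distances are given for other WT MDP regions, so these values describe the MDP-only regions without a background. The 413 regions in neither IRF8KO library stood lower in the WT MDP lists and were more isolated than the 1199 in both. Their median row position in WT MDP was 84.7%, against 69.8%, and 62 of 413 (15.0%, interval 11.9% to 18.8%) lay beyond 20 kb of any region of another WT stage, against 119 of 1199 (9.92%, 8.36% to 11.7%). Within the third band of row position the shares were 23.9% of 92 against 10.3% of 584, and within the last 11.7% of 315 against 9.23% of 455.

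The edges of the rule give its reach. Regions of both WT MDP libraries with a peak in exactly 1 of the other 6 WT libraries numbered 1417, and 54.1% and 59.9% had a peak in the IRF8KO libraries. Of these, 677 were seen in CDP replicate 1 alone and 367 in CDP replicate 2 alone, the more deeply sequenced group. Regions with a peak in exactly 1 WT MDP library and no other WT library numbered 3661, and 29.2% and 35.0% had a peak in the IRF8KO libraries. Among the members, 132 lay in the last 10% of both WT MDP lists, of which 41.7% and 46.2% had a peak in the IRF8KO libraries. With WT MDP replicate 1 left out, replicate 2 alone gave 3968 members, 51.5% mean IRF8KO detection, 41.0% in neither and a difference of 17.5 percentage points from MDP-and-CDP regions. With replicate 2 left out the values were 3365, 52.1%, 41.2% and 18.4 points. With all lists trimmed to the length of the shortest, the rule gave 1125 members, and 123 of the 1836 had row positions within the first 50% of both WT MDP lists.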

How the data were processed

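Peak lists of 10 ATAC-seq libraries were used. The submitters' processing notes name Bowtie 1.1.2, HOMER 4.9 and mm10 (GRCm38). Peaks were called library by library without a control, per the file headers, from a size of 500 bp, with 1000 bp between peaks, FDR 0.001, a 4-fold excess over the surrounding 10 kb and 1 tag per bp. No source states a read shift for the transposase. The deposited score was 1 in every row, so the authors' lists give positions without tag counts, and no count model was used. Other deposited columns (start and end) were read as positions.

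Rows stood in blocks of genome order, 13 to 28 in the second 50% of each list, taken as ties of strength, and each peak got the mean row of its block. Peaks on chromosomes 1 to 19 and X were merged at 1 bp overlap, and any overlapping peak counted as detection. Genes came from RefSeq of GRCm38.p6 (21627 protein-coding genes), and 252 of the 254 distinct genes of 16 lists matched (not Azu1 and Mx2). Named genes were the 10 with most members, those nearest the 8 members of lowest row position in both and in neither IRF8KO library, up to 3 per list and 7 fixed genes. Ties for the 10 were settled by lower mean row position, then by name. Some genes and lists that these rules pick are not reported here. The letters searched in promoters were set after the files were seen. The members, lists and rules were chosen with earlier results of these data known. Whether libraries of a group came from separate animals is not stated for the knockout, so the SD may measure technical spread. Python 3.11.15, pandas 2.3.3, NumPy 2.4.6 and SciPy 1.17.1 were used. The merging and class rules were tested on simulated peaks. Alternatives were peaks reduced to their central 200 bp, merging within 500 bp, lists trimmed to the shortest, WT MDP peaks in the first 50% of rows, regions over 3 kb or near other stages left out, and each library left out. Motif shares over whole regions were not run, for no genome sequence was used here.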

Additional observations from a re-analysis of the deposited data

How the results depend on the processing

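No paired analysis was possible because the results come from detection in peak lists and from no test, with no label that ties libraries of the same number. Leaving out 1 library at a time gave 1836 to 3968 members, 51.5% to 73.0% mean IRF8KO detection, 22.4% to 41.2% in neither IRF8KO library, a difference from MDP-and-CDP regions of 17.5 to 34.0 percentage points, 5.23% to 5.95% within 1 kb of a gene end, a median WT row position of 75.8% to 87.0%, held-out WT MDP detection of 52.3% to 63.4%, a median percentile difference between IRF8KO and WT MDP of -22.1 to -18.8 and a held-out detection difference of -17.9 to -0.42 percentage points. The last 2 results, and the run on rows as listed, were added after seeing the data.

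With peaks reduced to their central 200 bp, IRF8KO detection was 59.6%, neither 32.0%, the difference from MDP-and-CDP regions 24.0 points, gene ends 6.53%, row position 72.1%, the percentile difference -19.2 and the held-out difference -7.85 points. With lists trimmed to the shortest there were 1125 members, a difference from MDP-and-CDP regions of 29.2 points and 4.09% at gene ends. Their row position was 38.0% of the untrimmed list, the percentile difference -17.8 and held-out WT detection 61.9%. With WT MDP peaks in the first 50% of rows there were 123 members, IRF8KO detection was 95.5%, neither 3.25%, the difference from MDP-and-CDP regions 41.6 points, row position 39.0%, held-out WT detection 98.3% and the percentile difference -20.8. With regions within 1 kb of another WT stage left out, the difference from MDP-and-CDP regions was 34.5 points, and a 2.5 kb window put 10.6% of members at a gene end. The row positions of the trimmed run and of the first 50% run are bounded by their cut-offs. The cause of the other changes was not tested. None of the runs turned the sign of a mean difference. The held-out difference had no settled sign in the main run, at -5.96 points for choices on replicate 1 and 0.46 for choices on replicate 2. Merging within 500 bp, leaving out regions over 3 kb and rows as listed moved no value beyond its spread. Genes within 20 kb changed the member count of 7 of 49 named genes by more than 1.5 times, and trimmed lists that of 33, with 2 and 12 of the 16 lists. With trimmed lists Irf8, Spi1, Runx1, Bcl11a, Maf, Jun and Lcn2 had 0 members each, and Gata2 had 1. Plcb4 fell from 5 members to 1 and Unc5c from 4 to 0. Wwox, Chil3, Ms4a3 and Erg still had 3, 2, 1 and 1. Depth was lowest in the 4 MDP libraries and highest in CDP. Of the stages required to be absent, CDP bore most on the choice, with 2513 and 2203 members without CDP replicate 1 or 2, against 1846 to 1977 without an LT-HSC or LMPP library.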
